A study of Mus musculus with 74 samples.

Results

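Irf8, Batf3, Zbtb46, Flt3, Clec9a, Xcr1, Clec4a4, Esam and Cd209a are genes whose transcripts are used to mark dendritic cells, or 1 of their conventional subsets, in mouse spleen. Dtx1 was followed with them, though its transcripts were also high in spleen T cells here. These 10 genes were taken by symbol from a raw count table of 49480 gene symbols and followed as CPM, the count scaled to a fixed library total, through all 74 libraries of the study. All 10 had at least 1 count in a dendritic cell library. Each library was a Smart-seq2 preparation of 1000 double-sorted cells from C57BL/6J mice (Jackson Laboratory) that were 3 or 12 months old. All mice had been given MC38 cells, a mouse colon carcinoma line, under the skin and were taken on day 10, so spleen libraries also come from tumor-bearing animals and no tumor-free control enters. Dendritic cells (DC) were sorted from spleen and tumor as CD45+CD11b+CD11c+MHCII+, macrophages (MF) as CD45+CD11b+F4/80+, regulatory T cells (Treg) as CD45+TCRb+CD4+CD25+, conventional CD4+ T cells (T4) as CD45+TCRb+CD4+CD25- and CD8+ T cells (T8) as CD45+TCRb+CD8+. The 20 groups of sort, tissue and age held 4 libraries each. The exceptions were DC from spleen at either age and from tumor at 12 months and T4 from spleen at 3 months, with 3 libraries, and T4 from tumor at 3 months, with 2. The 13 DC libraries, 6 from spleen and 7 from tumor, are the main subject.

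Conventional dendritic cells arise from bone marrow precursors under the cytokine receptor FLT3 and carry the transcription factor ZBTB46, which most other myeloid cells lack. One subset, cDC1, needs the transcription factors IRF8 and BATF3 and carries the dead-cell receptor CLEC9A and the chemokine receptor XCR1. The other, cDC2, includes in spleen a group of cells that depends on Notch2 signalling and carries the adhesion molecule ESAM and the lectin DCIR2, encoded by Clec4a4. DTX1 (Deltex1) is an E3 ubiquitin ligase and a target of Notch signalling, and Cd209a encodes a lectin, DC-SIGN, of cDC2 and of dendritic cells that come from monocytes. The sort asked for CD11b, which cDC1 usually carry at low level, so the share of cDC1 in these libraries is set partly by the gate.

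Stretches of 250 bases upstream of annotated starts are shown for 3 of the genes, given 5′ to 3′ on the gene's strand, from RefSeq on GRCm38.p6. Irf8 and Xcr1 are shown because they were the members that rose in tumor in all 4 sorts other than DC, and Zbtb46 because it fell in 4 of the 5 sorts. Of the 10 genes, 8 had an entry in the RefSeq table, and Clec4a4 and Esam did not. The Irf8 stretch lies at chr8:120736108-120736357 on the plus strand, next to the first exon. The Xcr1 stretch lies at chr9:123862030-123862279 and the Zbtb46 stretch at chr2:181424389-181424638, each on the minus strand and outside annotated exons. The Zbtb46 stretch lies inside the gene as GENCODE annotates it (chr2:181387762-181459426). It precedes an internal RefSeq start and not the outermost 5′ end of the gene. Capitals mark a match to the AP-1 motif.
Irf8: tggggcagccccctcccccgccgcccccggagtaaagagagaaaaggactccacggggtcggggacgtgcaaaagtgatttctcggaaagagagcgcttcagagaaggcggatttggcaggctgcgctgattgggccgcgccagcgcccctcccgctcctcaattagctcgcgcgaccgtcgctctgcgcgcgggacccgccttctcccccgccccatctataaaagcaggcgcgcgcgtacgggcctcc
Xcr1: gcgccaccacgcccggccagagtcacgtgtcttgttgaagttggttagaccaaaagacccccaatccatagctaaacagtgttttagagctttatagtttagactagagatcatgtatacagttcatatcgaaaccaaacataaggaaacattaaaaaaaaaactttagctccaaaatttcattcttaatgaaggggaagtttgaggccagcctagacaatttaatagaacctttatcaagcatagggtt
Zbtb46: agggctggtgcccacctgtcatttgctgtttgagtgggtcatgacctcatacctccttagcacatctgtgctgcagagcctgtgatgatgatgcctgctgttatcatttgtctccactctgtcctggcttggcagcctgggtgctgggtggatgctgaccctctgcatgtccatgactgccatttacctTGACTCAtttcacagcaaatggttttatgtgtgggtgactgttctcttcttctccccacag
Motifs were searched on both strands, with any overlap counted. They were the RBPJ core TGGGAA, by which Notch acts on DNA, AP-1 as TGANTCA, bound by BATF-JUN pairs, an IRF element (GAAA, any 2 bases, GAAA) and an ETS-IRF element (GGAA, any 2 bases, GAAA). The only match in these 3 stretches was AP-1 in Zbtb46, from -61 to -55 counted from the internal start. This motif was held by 6.75% of 32851 upstream windows of this length. A second annotated Irf8 start had 1 match to the RBPJ core, which 21.6% of the windows held. None of the 4 motifs was found in the windows of the other 5 genes with an entry, of which those of Batf3, Dtx1 and Clec9a overlap annotated exons and are not shown. The data hold no measure of binding at any of them.

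Depth was 1652812 to 9115858 counts per library over all sorts and 2924963 to 9115858 in DC. Whether the libraries within a group stem from different mice is not labelled, so p-values measure only the spread between these libraries, which may be technical. Replicate 1 of each DC group is male and the other DC libraries are female, and sex was a term in the DC fits. Spleen DC replicates 3 and 4 of the 3-month group carry an age tag of 12 months against a title of 3 months, and the title was followed. The sorted surface molecules were present as transcripts in DC of both tissues, with mean levels in spleen and tumor of 582 and 399 CPM for Itgax (CD11c), 67.0 and 228 CPM for Itgam (CD11b) and 12650 and 19036 CPM for H2-Ab1 (MHC class II). Summed transcripts of 13 macrophage genes stood at 521 to 835 CPM in spleen DC and at 4346 to 23829 CPM in tumor DC. They were highest in tumor replicate 2 at 12 months (23829 CPM) and at 3 months (20042 CPM), with at most 9202 CPM in the other 5. In the MF sort the sum was 5682 to 8463 CPM in spleen and 20440 to 43778.5 CPM in tumor. The other 5 tumor DC libraries thus also carried macrophage transcripts, in a range that overlapped spleen MF. The tumor replicate 2 libraries of both ages are called macrophage-rich below, and named genes whose call changes without these 2 are given both ways.

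In tumor DC, 6 of the 10 genes were lower than in spleen DC and none was higher, with Clec4a4, Dtx1 and Esam nearly gone and Irf8 at a similar level. The 6 that fell were Clec4a4, Dtx1, Esam, Zbtb46, Flt3 and Batf3, and 4, Irf8, Clec9a, Xcr1 and Cd209a, did not pass the threshold of an adjusted p of 0.05 (edgeR quasi-likelihood test, Benjamini-Hochberg over all 13981 genes tested). Of all genes tested, 47.1% passed, 24.4% higher and 22.7% lower in tumor. The median log2 fold change was -1.10 over the 10 genes and -0.04 over all genes tested. Scaled to library totals, with no TMM factors, the median over all genes moved to -0.37, with 2147 higher and 5149 lower where the TMM fit had 3408 and 3175. On that scale 7 of the 10 genes were lower. As CPM, with no TMM factors, the libraries of the tissues did not overlap for 6 genes, Clec9a, Clec4a4, Dtx1, Esam, Zbtb46 and Flt3. How many of all genes lie apart in this way was not counted, so these 6 have no background share. In bulk libraries, fewer cells of a type and less RNA per cell cannot be told apart.

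**Figure D1:**
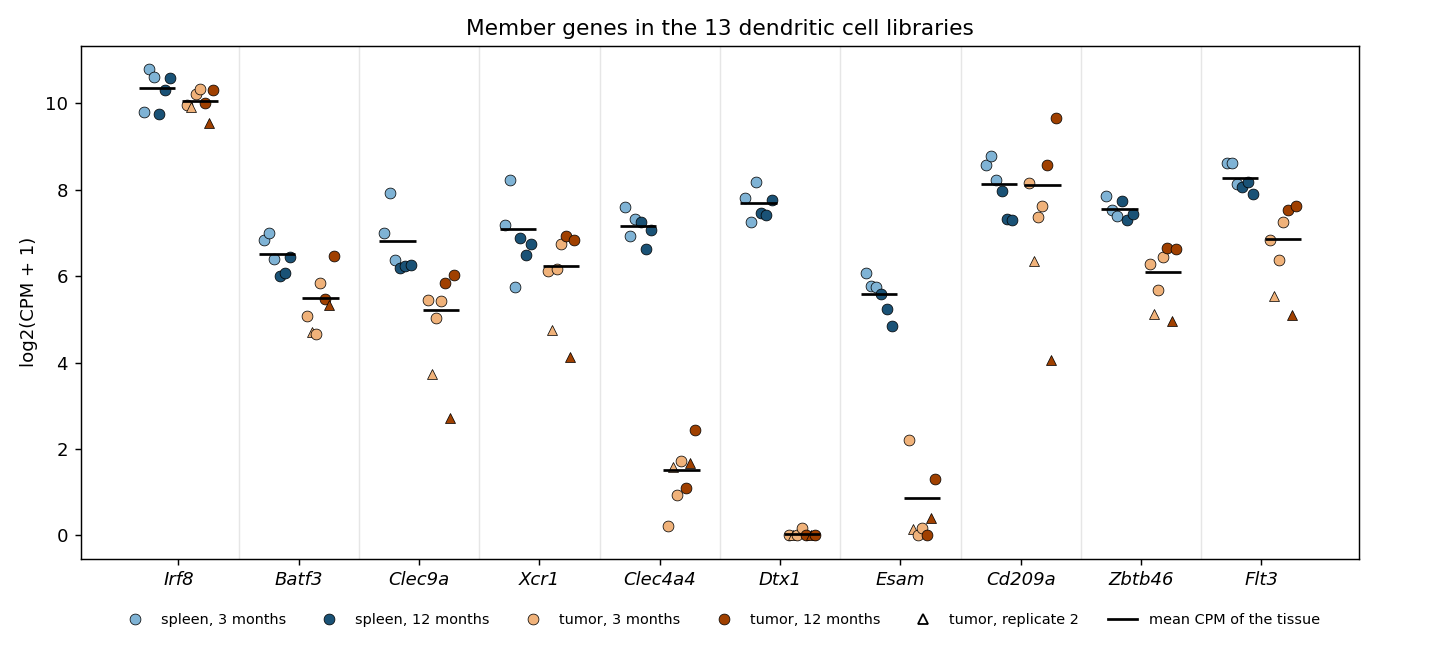
Level of each of the 10 genes in the 13 dendritic cell libraries, as log2(CPM + 1), by tissue (blue spleen, orange tumor) and age (darker at 12 months), with triangles for tumor replicate 2 of either age and bars for the mean CPM of a tissue. Clec4a4, Dtx1 and Esam lie near 0 in tumor, Irf8 overlaps between the tissues, and Cd209a runs from 15.8 to 806 CPM in tumor.

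Dtx1 (chr5:120680202-120711927, minus strand, GRCm38) had the widest gap of the 10. Its 6 spleen DC libraries held 175, 171 and 217 CPM at 12 months and 225, 152 and 290 CPM at 3 months. In tumor DC, 6 of 7 libraries held no Dtx1 count and the seventh, replicate 4 at 3 months, held 1. Every spleen library was thus far above every tumor library at either age. Summed over libraries this was 6757 counts in spleen against 1 in tumor, a ratio of 9459 with a 95% counting interval of 1697 to 373681. At 12 months, where tumor had 0 counts, Dtx1 was at least 980-fold lower, taken against a floor of 3 counts over the group. Its call (adjusted p = 1.33e-10) held in every alternative fit and with any 1 library left out. Such intervals and floors cover counting error only.

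Clec4a4 (chr6:122990367-123024105, plus strand) encodes DCIR2, an inhibitory C-type lectin used to identify splenic cDC2. Spleen DC libraries ranged from 97.7 to 193 CPM, with a mean of 142.6 ± 33.2 (SD, n = 6), and tumor DC libraries from 0.159 to 4.43 CPM, with a mean of 1.87 ± 1.37 (SD, n = 7). The tissues lay far apart, with no overlap. Pooled counts gave 4618 against 80, an 80.8-fold difference (95% counting interval 64.8 to 102). The fitted log2 fold change was -5.91 (SE 0.36, adjusted p = 8.98e-08). Clec4a4 sits in a cluster of closely related lectin genes, and how reads that match several of them were counted is not given in the sources used here.

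Esam (chr9:37528078-37538319, plus strand) encodes an immunoglobulin-family adhesion molecule of endothelium and splenic cDC2. Spleen DC held 47.3, 36.7 and 27.9 CPM at 12 months and 66.1, 53.3 and 53.1 CPM at 3 months. Tumor DC held 0, 0.313 and 1.48 CPM at 12 months and 3.65, 0.1097, 0 and 0.126 CPM at 3 months. The tumor library with 3.65 CPM, replicate 1, held 23 of the 33 Esam counts of all tumor DC. The log2 fold change was -5.79 (SE 0.69, adjusted p = 4.44e-05), and the pooled counts differed 64.2-fold (95% counting interval 45.5 to 93.7).

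Marker transcripts of other cell types also differed between the tissues. Summed transcripts of 9 B cell genes ran from 598 to 3592 CPM in spleen DC and from 18.6 to 38.0 CPM in tumor DC, and all 9 fell. In the 6 spleen DC libraries, ordered by rising B cell sums of 598, 637, 1880.3, 2275, 2930.2 and 3592 CPM, Dtx1 stood at 152, 225, 290.4, 175, 217 and 171 CPM. Among genes of plasmacytoid dendritic cells, 9 of 10 fell and Bst2 rose, and their sum went from 1303 to 2587 CPM in spleen to 537 to 644 CPM in tumor. Of 13 macrophage genes 12 rose, with Trem2 at 0 in every spleen DC library. Adgre1 did not pass in the edgeR fit of all DC libraries (log2 fold change 0.07, adjusted p = 0.950). Without the 2 macrophage-rich libraries Adgre1 passed as lower in tumor (log2 fold change -1.38, adjusted p = 9.07e-08). The macrophage list then had 12 higher and 1 lower. Of 8 monocyte genes 6 rose in the fit of all DC libraries. Cd14 went from 7.40 to 1203 CPM and Ccr2 from 196 to 1411 CPM on average. Neutrophil genes summed to 28.7 to 347 CPM in spleen and 3.59 to 24.1 CPM in tumor DC. T cell genes summed to 50.8 to 126 and 2.03 to 43.3 CPM. Plasma cell genes summed to 1385 to 5451 CPM in spleen and 356 to 570.4 CPM in tumor. Gene by gene they did not share 1 direction, as 3 of 6 fell and 2 rose. Ighm went from 2922 to 110 CPM and Xbp1 from 216 to 350 CPM on average. NK cell genes summed to 40.7 to 170.3 CPM in spleen and 0.878 to 124 CPM in tumor. Genes of tumor and stroma summed to 9.98 to 18.9 and 13.7 to 138 CPM. Most of this was Epcam, with means of 11.6 CPM in spleen and 53.6 CPM in tumor. The part of these cell types in the falls of Clec4a4, Dtx1, Esam, Zbtb46, Flt3 and Batf3 was not tested.

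Zbtb46 (chr2:181387762-181459426, minus strand), the zinc finger factor of the conventional dendritic lineage, ranged from 158 to 230 CPM in spleen DC (mean 187 ± 28.5, SD, n = 6) and from 30.2 to 100 CPM in tumor DC (mean 67.8 ± 29.5, SD, n = 7). The log2 fold change was -1.11 (SE 0.26, adjusted p = 0.0038). Both macrophage-rich libraries were the lowest, with 30.2 and 33.7 CPM, and the other 5 lay between 50.6 and 100 CPM, still below every spleen library. Flt3 (chr5:147330741-147400489, minus strand), the receptor for the cytokine that drives dendritic cell development, ranged from 239.8 to 393 CPM in spleen and from 33.3 to 195 CPM in tumor. Its log2 fold change was -1.08 (SE 0.39, adjusted p = 0.0444).

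Batf3 (chr1:191097847-191108945, plus strand), a basic leucine zipper factor that pairs with JUN proteins, went from 90.1 ± 25.6 CPM (SD, n = 6) in spleen DC to 44.2 ± 22.2 CPM (SD, n = 7) in tumor DC. The tissues overlapped through tumor replicate 3 at 12 months, at 87.9 CPM, and the other 6 tumor libraries were below the lowest spleen library, at 63.4 CPM. The log2 fold change was -0.68 (SE 0.24, adjusted p = 0.0315). The calls of Flt3, Batf3 and Zbtb46 changed with the libraries that entered, and that of Flt3 also with no low-count filter (adjusted p = 0.136) and with the groups set by age tag (adjusted p = 0.116). Without the spleen libraries of conflicting age labels, 3 of the 10 genes passed in place of 6, with adjusted p = 0.227 for Flt3, 0.0775 for Batf3 and 0.0610 for Zbtb46. Without the 2 macrophage-rich libraries Flt3 and Zbtb46 still passed and Batf3 did not (log2 fold change -0.51, adjusted p = 0.0698). Without the male libraries neither Flt3 (0.128) nor Batf3 (0.179) passed.

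With any 1 of 10 DC libraries left out, the Flt3 call was lost, with adjusted p up to 0.0968, and it held only without tumor replicates 2 and 3 at 12 months and replicate 4 at 3 months. The Batf3 call was lost without spleen replicate 1 or 4 or tumor replicate 1 or 2 at 12 months, or spleen replicate 1 or 3 at 3 months, with adjusted p from 0.0503 to 0.0856. Zbtb46 held with any 1 library left out. All 3 kept a negative fold change throughout.

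Irf8 (chr8:120736358-120756694, plus strand), a transcription factor that cDC1 need in large amounts and that plasmacytoid dendritic cells, monocytes and B cells also carry, showed no detectable difference. Spleen DC held 857, 1273 and 1538 CPM at 12 months and 889, 1769 and 1554 CPM at 3 months. Tumor DC held 1032, 742 and 1269 CPM at 12 months and 989, 962, 1182 and 1280 CPM at 3 months. The male libraries were the lowest of the spleen, and all but 1 tumor library lay within the spleen range. The log2 fold change was 0.05 (SE 0.15, adjusted p = 0.831), and it turned to -0.28 without TMM scaling and to -0.20 without the male libraries.

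Clec9a (chr6:129408862-129424763, plus strand), the receptor with which cDC1 take up dead cells, fell short of the threshold although its libraries did not overlap. It ranged from 71.4 to 241 CPM in spleen DC, with a median of 78.8, and from 5.63 to 64.0 CPM in tumor DC, with a median of 42.0. The log2 fold change was -1.22 (SE 0.51, adjusted p = 0.0786). It passed in 4 of the alternatives, among them the fit without the macrophage-rich libraries (log2 fold change -0.80, adjusted p = 0.0170), and without tumor replicate 2 at 12 months alone (adjusted p = 0.0491). One exon of Clec9a shares bases with Clec1b on the same strand.

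Xcr1 (chr9:123852315-123862029, minus strand), the receptor for XCL1 from T and NK cells, ranged from 52.4 to 299 CPM in spleen DC and from 16.4 to 121 CPM in tumor DC. The log2 fold change was -0.49 (SE 0.54, adjusted p = 0.495). Only the 2 macrophage-rich libraries, at 16.4 and 25.8 CPM, were below the lowest spleen library. Without spleen replicate 3 at 3 months, which held the 299 CPM, the log2 fold change was 0.01.

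Cd209a (chr8:3743397-3748984, minus strand) encodes DC-SIGN, and its tumor DC libraries spread widely. Spleen DC held 249.96, 159 and 156 CPM at 12 months and 382, 440.3 and 299 CPM at 3 months. Tumor DC held 382, 15.8 and 806 CPM at 12 months and 283, 81.0, 164 and 196 CPM at 3 months. The tumor means, 275 ± 264 CPM (SD, n = 7), and the spleen means, 281 ± 116 CPM (SD, n = 6), were close, and the log2 fold change was 0.36 (SE 0.65, adjusted p = 0.681). The 2 lowest values were the macrophage-rich libraries, and without them Cd209a passed as higher in tumor (log2 fold change 0.74, SE 0.23, adjusted p = 0.0252). Without tumor replicate 3 at 12 months, the library at 806 CPM, the log2 fold change was -0.54. Cd209a, too, has close paralogs beside it.

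Per kilobase of exon, the scale on which genes can be compared, Irf8 (186 CPM per kb), Clec4a4 (184) and Cd209a (178) led in spleen DC. Batf3 followed at 56.4, Flt3 at 50.1, Dtx1 at 38.9, Clec9a at 33.9, Xcr1 at 30.3, Zbtb46 at 22.0 and Esam at 16.5 CPM per kb. In tumor DC the order was Cd209a (174), Irf8 (151), Batf3 (27.7), Flt3 (18.6), Xcr1 (16.7), Clec9a (11.03) and Zbtb46 (7.97), with Clec4a4 (2.41), Esam (0.283) and Dtx1 (0.00342) last. Thus Clec4a4 moved from the second place to the eighth, whereas the cDC1 genes kept within a few places.

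Because Zbtb46 itself fell, each gene was also set against it within a library, as counts per Zbtb46 count with a pseudocount of 0.5. On this scale a gene with no change of its own comes out higher in tumor. A rise on it is therefore no separate evidence about that gene. Irf8 rose on this scale, from 3.87 to 9.69 Irf8 counts per Zbtb46 count in spleen DC to 10.3 to 28.6 in tumor DC, with no overlap (log2 difference 1.32, adjusted p = 0.00262). Clec4a4 (log2 difference -4.98), Dtx1 (-9.46) and Esam (-5.45) fell, each with adjusted p = 0.00262. For these 4 genes the raw p of 0.0011655 was the smallest the two-sided exact permutation test of 7 against 6 libraries can give, and p-values were adjusted over the 9 genes. Since 6 of 7 Dtx1 values rest on the pseudocount, its size is not a measured fold.

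The other 5 genes did not pass relative to Zbtb46 in the exact permutation test. Flt3 stood closest to it, at 1.24 to 2.15 counts per Zbtb46 count in spleen and 1.10 to 1.99 in tumor (log2 difference -0.06, adjusted p = 0.705). The difference was -0.23 for Clec9a (adjusted p = 0.611), 0.48 for Batf3 (0.172), 0.65 for Xcr1 (0.157) and 0.95 for Cd209a (0.157). Without the 2 macrophage-rich libraries Cd209a (1.46, adjusted p = 0.0156) and Xcr1 (0.89, adjusted p = 0.0455) passed as higher, and Irf8 still did (1.07, adjusted p = 0.00974). Leaving out tumor replicate 2 at 12 months was enough for Cd209a (adjusted p = 0.0117), and leaving out spleen replicate 3 at 3 months was enough for Xcr1 (adjusted p = 0.0227). With Flt3 in place of Zbtb46 as the denominator, Irf8 was again higher (1.38, adjusted p = 0.00524) and Xcr1 also passed (0.71, adjusted p = 0.0378). Flt3 fell in tumor DC too, so the same limit holds for this denominator.

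**Figure D2:**
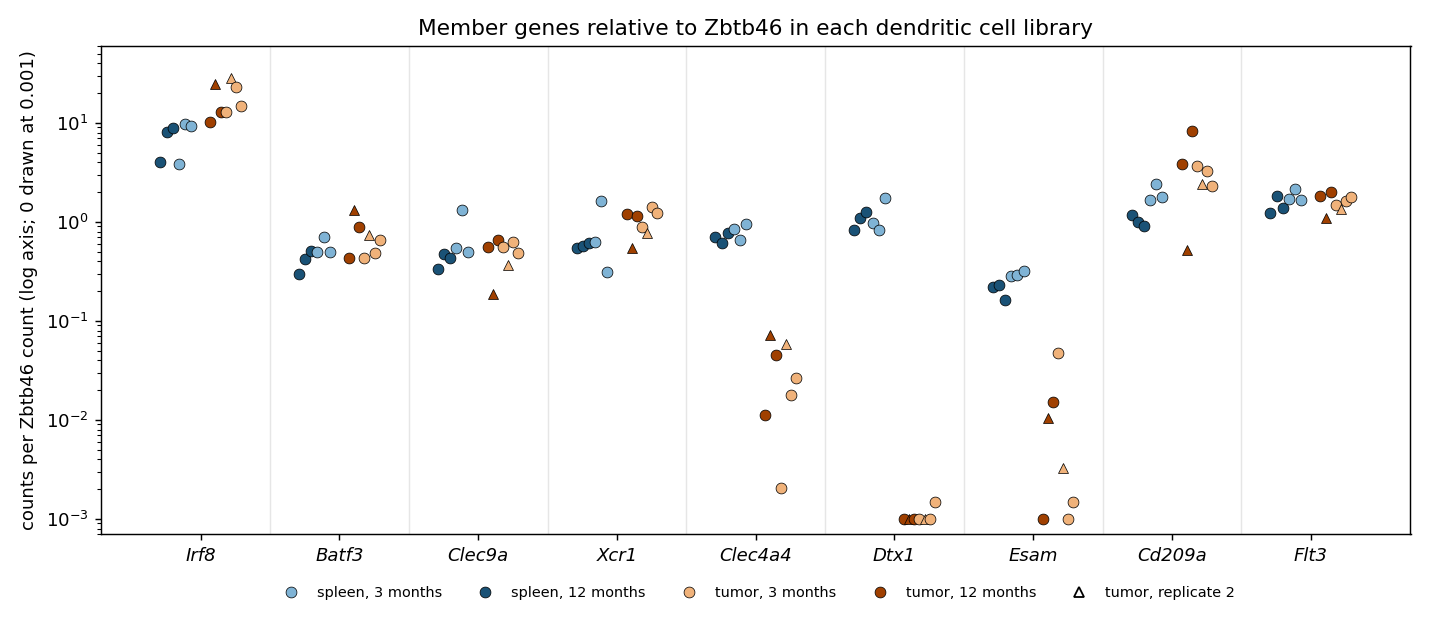
Counts of each gene per Zbtb46 count in the 13 dendritic cell libraries, on a log axis with 0 drawn at 0.001, by tissue and age, with triangles for tumor replicate 2 of either age. Irf8 lies higher in tumor, at 10.3 to 28.6 against 3.87 to 9.69 in spleen, Clec4a4, Dtx1 and Esam lie lower, and Flt3 overlaps.

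Other genes of the same subsets and pathways, from lists made for this comparison, did not all follow the 10. Of all 13981 genes tested in the same fit, 24.4% rose and 22.7% fell. The counts of each list are to be read beside these shares, and counts near them are no result about a list. Of 15 other cDC1 genes, 6 rose, 2 fell and 7 did not pass (median log2 fold change 0.25). Nfil3, a transcription factor on the path to cDC1, rose from 7.66 to 144 CPM (log2 fold change 4.59, adjusted p = 1.03e-08), Itgae, the integrin CD103, rose by 2.89 (0.000975) and Rab7b by 1.69 (0.00046). Tlr11, a receptor for microbial profilin, fell (-1.94, 0.000754), as did Cadm1, an adhesion molecule of cDC1 (-1.83, 0.0145, and 0.0585 without the spleen libraries of conflicting age labels). Wdfy4, needed for cross-presentation, was at -0.78 (0.0805) and Id2 at 0.25 (0.429). In the edgeR fit without the macrophage-rich libraries, Wdfy4 passed as lower (-0.47, adjusted p = 0.0102) and Id2 as higher (0.49, adjusted p = 0.0160). The median turned to -0.08 with library totals in place of TMM, with 4 higher and 3 lower.

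Of 14 other cDC2 genes, 4 rose, 6 fell and 4 did not pass (median -0.05). Mgl2, a galactose-binding lectin (CD301b), rose from 3.28 to 369 CPM (log2 fold change 7.08, adjusted p = 1.45e-05), and Klf4, a factor of a cDC2 subset, rose by 3.13 (2.54e-05). Itgam, which encodes the sorted CD11b, rose by 2.12 (9.4e-07). Cd4, carried by splenic ESAM+ cDC2, fell from 43.3 to 1.13 CPM (log2 fold change -5.11, adjusted p = 1.67e-05), and Relb (-1.49, 4.45e-05) and Ltb, lymphotoxin beta (-2.64, 0.00144), fell too. Sirpa was at 0.33 (0.184) and Cd300a at 0.29 (0.235). Cd300a passed as higher once the macrophage-rich libraries were left out of the edgeR fit (0.46, adjusted p = 0.0149). Without the spleen libraries of conflicting age labels 3 rose and 4 fell.

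Of 23 other Notch pathway genes 21 could be tested, and 7 rose, 2 fell and 12 did not pass (median 0.25). Rbpj, the DNA-binding factor of the pathway, rose from 69.0 to 113 CPM (log2 fold change 1.03, adjusted p = 7.93e-06). The ligand gene Jag2 rose by 4.32 (1.04e-05) and Dtx4, a paralog of Dtx1, rose by 2.08 (0.000231). The receptor gene Notch2 fell from 669 to 399 CPM (log2 fold change -0.41, adjusted p = 0.00493, and 0.177 without the spleen libraries of conflicting age labels), and Jag1 fell too (-0.70, 0.00682). Hes1, a classical target, went from 5.93 to 2.56 CPM and did not pass (adjusted p = 0.215), Maml2 was at 0.25 (0.414) and Mfng at 0.17 (0.292). Without TMM scaling 5 rose and 3 fell, with a median of -0.08.

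Among 20 other developmental factors and receptors 10 rose, 4 fell and 6 did not pass (median 0.45). The chains of the receptor for GM-CSF, Csf2rb (1.77, adjusted p = 6.29e-08) and Csf2ra (1.67, 6.98e-08), rose. Bcl11a (-2.47, 0.00151), Ikzf1 (-0.94, 4.2e-06) and Tcf4 (-0.93, 1.6e-05), transcription factors of early and plasmacytoid development, fell, and Zeb2 was at 0.42 (0.170). Of 8 other IRF genes 3 rose, 1 fell and 4 did not pass, with Irf7 at 2.92 (1.44e-08), Irf5 at 1.15 (2.37e-06), Irf1 at 0.96 (8.73e-06) and Irf3 at -0.42 (0.0116). Irf4, a factor of cDC2, was at -0.39 (0.479) and Irf9 at 0.15 (0.232). Among 4 testable BATF and JUN genes Batf2 rose from 0.352 to 21.5 CPM (log2 fold change 6.57, adjusted p = 1.2e-06), Junb by 3.07 (1.92e-07) and Jun by 1.93 (0.000419), and Batf was at 0.39 (0.103). Batf passed as higher in the edgeR fit without the macrophage-rich libraries (0.53, adjusted p = 0.0307).

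Of 14 lectin genes related to Clec4a4 and Cd209a that could be tested, 6 rose, 2 fell and 6 did not pass (median 0.96). Clec7a, the receptor Dectin-1, rose from 78.6 to 1543 CPM (log2 fold change 4.73, adjusted p = 8.32e-11), Clec4n, Dectin-2, by 5.18 (5.19e-09) and Clec4d by 4.69 (4.87e-06). Clec4b1 fell (-1.06, adjusted p = 0.0455, and 0.0737 without the macrophage-rich libraries), and Clec4b2 went from 1.65 to 0.0704 CPM (adjusted p = 0.00275). Clec12a was at 0.47 (0.0672) and Clec4a1 at 0.75 (0.102). Genes of mature, migratory dendritic cells rose in 11 of 16 cases and fell in 1 (median 0.96), with Il12b at 3.37 (2.45e-07), Cd86 at 1.68 (2.28e-07) and Cd274, encoding PD-L1, at 1.18 (4.49e-06). Relb fell, and Tmem123 (0.14, 0.433) and Cacnb3 (0.13, 0.737) did not pass. Tmem123 passed as higher in the edgeR fit without the macrophage-rich libraries (0.26, adjusted p = 0.0362). Several of these genes, among them Clec7a, Clec4n and Csf2rb, are also made by macrophages and monocytes, whose summed transcripts rose in the same libraries, and that part was not tested. Without the macrophage-rich libraries the cDC1 list had 8 higher and 3 lower, the developmental list 12 and 4, the Notch list 6 and 4, and the mature list 12 and 1.

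The MF sort gives the levels of the 10 genes in another myeloid sort. The genes were chosen mainly because they mark dendritic cells. Higher levels in DC than in MF thus follow in part from the choice and are no separate evidence. In spleen all 10 were higher in DC than in MF, with 25.8% of 15258 genes tested higher and 52.9% past the threshold in either direction. The log2 differences ran from 1.65 for Irf8 (SE 0.15, adjusted p = 2.78e-10) to 5.25 for Xcr1 (SE 0.49, adjusted p = 6.08e-09), with Clec9a at 4.86, Clec4a4 at 4.83 and Zbtb46 at 3.82. Cd209a (1.99, adjusted p = 0.0110) did not pass without the spleen DC libraries of conflicting age labels (adjusted p = 0.156). In tumor, 7 of the 9 genes that could be compared were higher in DC, with 23.9% of genes tested higher and 45.9% past the threshold. Cd209a (7.07), Clec9a (5.53), Zbtb46 (4.297), Flt3 (4.06), Xcr1 (2.62), Batf3 (1.85) and Irf8 (1.13) passed, each with an adjusted p of 2.66e-05 or less. Clec4a4 (0.25, adjusted p = 0.577) and Esam (1.21, adjusted p = 0.303) did not, and Dtx1 had 1 count in all DC and 1 in all MF libraries of the tumor.

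In MF themselves 7 of the 10 genes fell from spleen to tumor, 2 rose and Batf3 did not pass, where 51.7% of 12876 genes tested passed, 23.9% higher and 27.8% lower. Without TMM scaling these were 2136 higher and 4776 lower, where the TMM fit had 3072 and 3582. Irf8 rose from 436 ± 91.2 to 551 ± 55.9 CPM (log2 fold change 0.56, adjusted p = 0.000632) and Xcr1 from 3.13 ± 1.07 to 12.1 ± 5.01 CPM (2.14, adjusted p = 1.46e-05; SD, n = 8 in each tissue). Dtx1 held 889 counts in spleen MF and 1 in tumor MF, a ratio of 888 (95% counting interval 159 to 35110). Cd209a fell from 59.8 ± 38.6 to 2.60 ± 2.88 CPM (log2 fold change -4.71, adjusted p = 6.31e-05), and Esam (-3.46, 0.000286), Flt3 (-2.04, 0.00352), Zbtb46 (-1.55, 0.0179) and Clec4a4 (-1.35, 0.00186) fell as well. Clec9a, at 3.29 CPM in spleen MF, fell (-1.81, adjusted p = 0.0315), a call lost in 11 of 16 fits that left out 1 library (adjusted p up to 0.0646). It held only without spleen replicate 4 or tumor replicate 3 at 12 months, spleen replicate 1 or 2 at 3 months, or tumor replicate 1 at 3 months. Neutrophil genes summed to 4146 to 39845 CPM in spleen MF and to 28.4 to 838 CPM in tumor MF. B cell genes summed to 941 to 3301 CPM in spleen MF and to 10.8 to 40.4 CPM in tumor MF. Plasma cell genes summed to 1483 to 8362 and 507 to 711 CPM. Sums of plasmacytoid dendritic cell genes overlapped, at 320 to 771 and 402 to 659 CPM. The part of these cell types in the differences between spleen and tumor MF was not tested.

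The difference between tissues itself differed between DC and MF for 3 of 9 genes, where 23.3% of genes tested passed. Cd209a fell in MF and not in DC (difference of log2 fold changes 5.07, SE 1.01, adjusted p = 0.000772). Xcr1 rose in MF and not in DC (-2.63, SE 0.62, adjusted p = 0.00299), and Clec4a4 fell more in DC (-4.58, SE 0.45, adjusted p = 1.05e-08). Irf8 lay just outside the threshold (-0.52, adjusted p = 0.0589), and Batf3, Clec9a, Esam, Zbtb46 and Flt3 did not pass. In edgeR, Irf8 passed with DESeq2 size factors (adjusted p = 0.0486), no low-count filter (0.0479) and library totals (0.0229). It also passed without the male libraries (0.0175) and in the DESeq2 Wald test (0.0398). Flt3 passed with no low-count filter (0.000883) and Esam without the male libraries (0.0289), both in edgeR. Without tumor MF replicate 4 at 3 months 5 genes passed, with Irf8 (adjusted p = 0.0419) and Flt3 (adjusted p = 0.0184) added. Irf8 also passed without any 1 of 5 other libraries, Esam without tumor DC replicate 1 at 3 months (adjusted p = 0.0139).

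**Figure D3:**
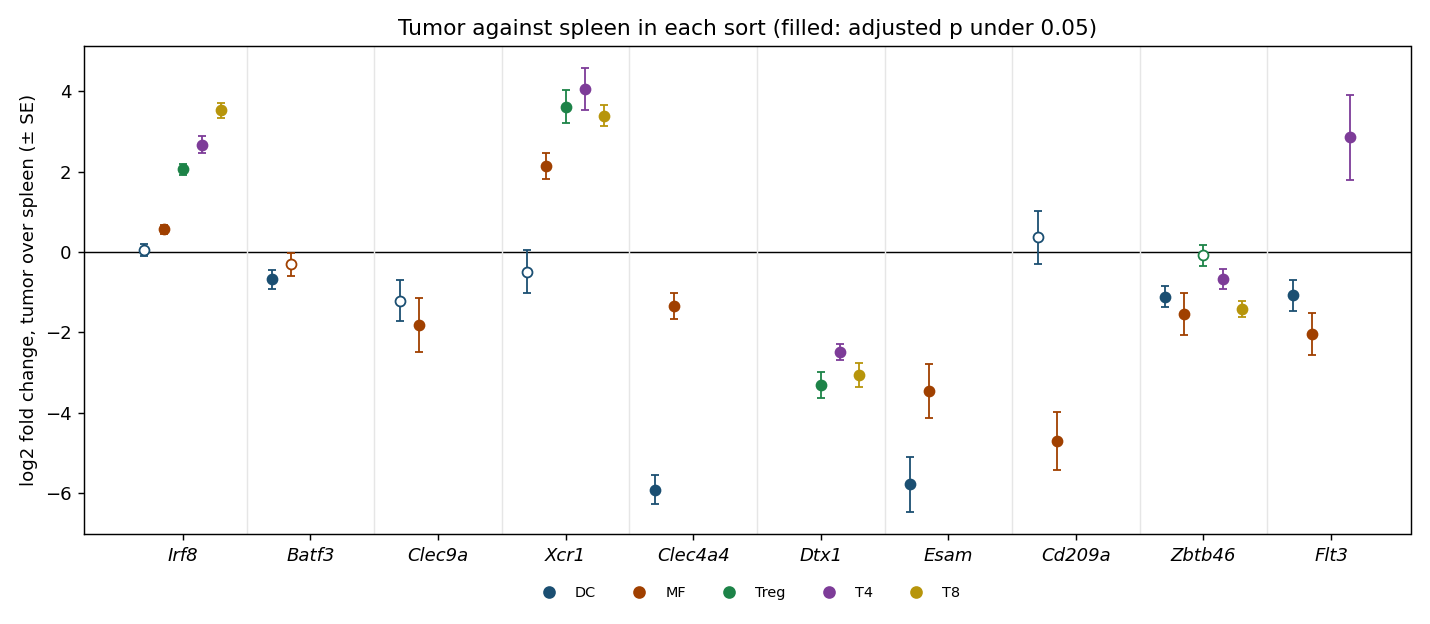
Log2 fold change of tumor over spleen (± SE) for each of the 10 genes in each sort that could be tested, filled where the adjusted p was under 0.05; Dtx1 in DC and MF is left out because tumor held 1 count. Irf8 and Xcr1 lie above 0 and are filled in MF, Treg, T4 and T8, are open in DC (0.05 and -0.49), and every plotted Dtx1 value lies below -2.

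T cell libraries carried 4 of the 10 genes, Irf8, Xcr1, Dtx1 and Zbtb46, at levels that could be tested in each sort, and Flt3 in T4. In Treg 3 of 4 passed, 2 higher (25.9% of all genes tested) and 1 lower (27.6%). In T4 5 of 5 passed, 3 higher (16% of genes) and 2 lower (11.2%), and in T8 4 of 4, 2 higher (22.5%) and 2 lower (19.6%). In either direction 53.5% of genes passed in Treg, 27.2% in T4 and 42.1% in T8. Irf8 rose in tumor in each T cell sort. In T8 its lowest, median and highest values were 12.96, 24.5 and 48.2 CPM in spleen against 163, 261 and 434 CPM in tumor (log2 fold change 3.52, SE 0.19, adjusted p = 2.72e-11). Treg went from 51.4, 85.9 and 103 to 242, 273 and 352 CPM (2.05, SE 0.13, adjusted p = 3.9e-11), and these libraries, like those of T8, did not overlap. T4 went from 9.78, 23.0 and 41.1 to 34.8, 90.0 and 189.9 CPM, with an overlap (2.67, SE 0.21, adjusted p = 1.14e-10). Tumor T8 and tumor Treg thus held Irf8 at about the same mean, 283 and 282 CPM, below tumor MF at 551 CPM.

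Xcr1 rose in the same 3 sorts with no overlap in any of them. T8 went from 1.29, 4.16 and 8.31 to 26.2, 44.5 and 76.5 CPM (log2 fold change 3.39, SE 0.26, adjusted p = 1.91e-10). T4 went from 0, 1.40 and 5.69 to 10.8, 33.2 and 54.8 CPM (4.06, SE 0.52, adjusted p = 4.31e-06), and Treg from 0, 0.860 and 2.17 to 4.66, 8.21 and 18.7 CPM (3.62, SE 0.42, adjusted p = 2.74e-07). In the same T cell libraries Clec9a, the other cDC1 surface gene, reached at most 1.82 CPM and Cd209a at most 2.03 CPM, and Batf3 was at 0 in every T4 library. Macrophage genes summed to at most 85.6 CPM in any T cell library, against 4346 CPM or more in tumor DC. The 8 monocyte genes summed to 24.2 to 192 CPM in spleen Treg, 44.3 to 131 CPM in spleen T4 and 557 to 1214 CPM in spleen T8, and to 1170 to 5315 CPM in the tumor T cell libraries. Their part in the rise of Irf8 and Xcr1 was not tested.

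Dtx1 fell in each T cell sort as in DC and MF. T8 went from 94.9, 170 and 218 to 6.70, 16.7 and 41.6 CPM (log2 fold change -3.07, SE 0.30, adjusted p = 8.76e-07). T4 went from 81.2, 136 and 174 to 12.7, 23.5 and 29.6 CPM (-2.49, SE 0.20, adjusted p = 2.41e-10) and Treg from 45.0, 67.4 and 96.8 to 1.04, 5.25 and 10.1 CPM (-3.32, SE 0.32, adjusted p = 7.3e-08). No tumor library of a T cell sort reached the lowest spleen library of its sort. B cell genes summed to 14.96 to 127 CPM in spleen and 9.59 to 36.9 CPM in tumor T cell libraries, and their part was not tested.

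Zbtb46 fell in T8, from 35.4, 44.8 and 60.9 to 6.23, 16.2 and 25.7 CPM (log2 fold change -1.42, SE 0.19, adjusted p = 1.65e-06), and did not pass in Treg (-0.08, adjusted p = 0.807). In T4 it fell (-0.67, adjusted p = 0.0479), and Flt3 rose there from 12 counts over 7 libraries to 46 over 6 (2.86, adjusted p = 0.0445). Each of these T4 calls was lost without any 1 of several libraries. Zbtb46 lost it in 7 of 13 such fits (adjusted p up to 0.190, without tumor replicate 1 at 3 months) and Flt3 in 10 of 13 (up to 0.507, without the same library). The 6 libraries whose removal left only 3 calls in T4 were spleen replicates 2 and 3 and tumor replicates 2 and 3 at 12 months, spleen replicate 3 at 3 months and tumor replicate 1 at 3 months. Without TMM scaling the Treg split went from 3452 higher and 3686 lower to 2455 and 5298.

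Across sorts, which share no libraries, Irf8 and Xcr1 were 2 of 531 genes that rose in MF, Treg, T4 and T8 together, 4.86% of the 10919 genes tested in all 4. Dtx1 was 1 of 187 genes that fell in all 5 sorts, 1.74% of 10777.

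**Figure D4:**
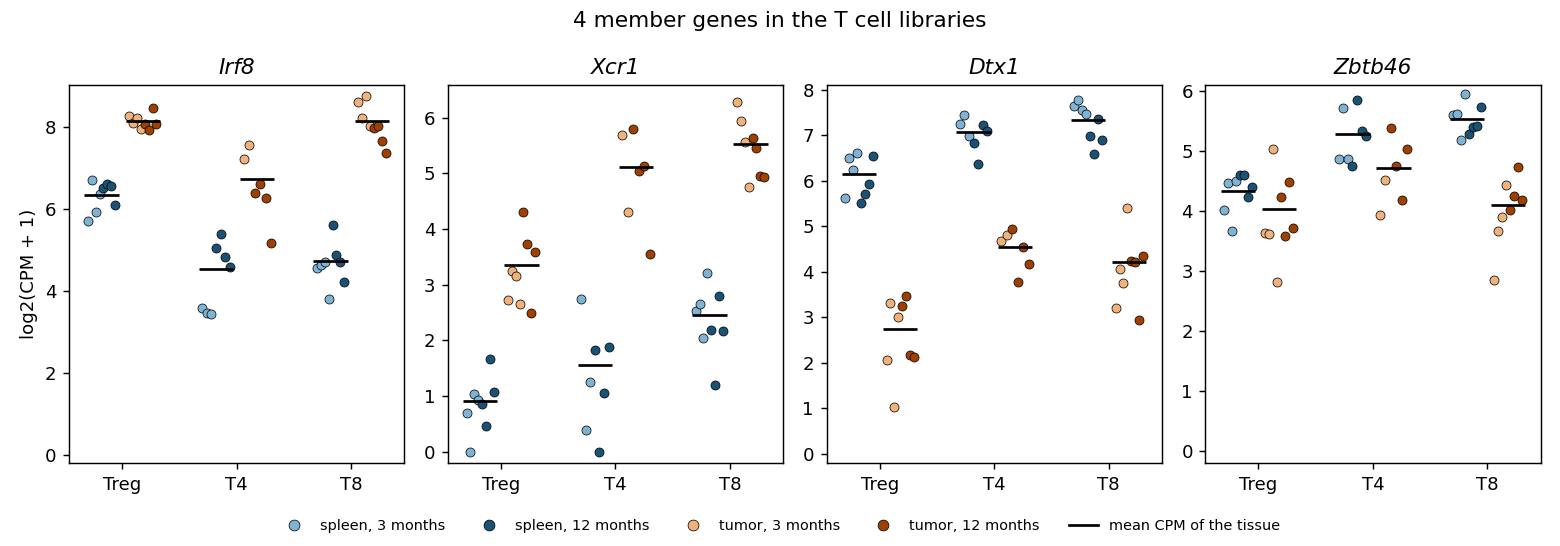
Levels of Irf8, Xcr1, Dtx1 and Zbtb46 in the 45 T cell libraries, as log2(CPM + 1), by tissue and age, with bars for the mean CPM. Irf8 and Xcr1 are higher and Dtx1 lower in tumor in each sort, and Zbtb46 is lower in T8, where the tissues do not overlap, and overlaps in Treg and T4.

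With age, 12 against 3 months, 3 calls were made among the 10 genes over all sorts and tissues. In spleen DC 1 of 10 passed, where 0.593% of 12650 genes did, 0.443% higher and 0.15% lower. It was Cd209a, at 249.96, 159 and 156 CPM at 12 months and 382, 440.3 and 299 CPM at 3 months (log2 fold change -1.01, SE 0.18, adjusted p = 0.0262). The call was lost when the libraries of conflicting age labels were left out (adjusted p = 0.332) or grouped by their age tag (0.940), without the sex term (0.0651), without the male libraries (0.0673) and in the fit of all 4 DC groups (0.841). It was also lost without any 1 of the 12-month libraries or of replicate 1 at 3 months (adjusted p from 0.0560 to 0.222). Without replicate 4 at 3 months 4 genes passed. In tumor DC none of 8 passed, and 0 of 12090 genes did in edgeR, with 158 at an unadjusted p under 0.05 and none of the 8 among them. The age by tissue interaction passed for none of 10 and for 0 of 13981 genes, with 778 at an unadjusted p under 0.05, Batf3 among them.

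Outside DC, Irf8 in T4 differed with age in spleen. It stood at 10.3 ± 0.674 CPM (SD, n = 3) at 3 months and at 30.8 ± 7.75 CPM (SD, n = 4) at 12 months (log2 fold change 1.40, SE 0.32, adjusted p = 0.0242), where 3.92% of 11726 genes passed, 1.96% in each direction (230 higher and 230 lower), or 305 and 83 without TMM scaling. The call was lost without replicate 1, 2 or 3 at 12 months or replicate 1 or 4 at 3 months (adjusted p from 0.0604 to 0.0960). In tumor T4, Irf8 lay the other way, at 169 ± 29.7 CPM (SD, n = 2) at 3 months and 72.8 ± 26.6 CPM (SD, n = 4) at 12 months, and did not pass (log2 fold change -1.24, SE 0.27, adjusted p = 0.130, where 0.0311% of genes passed, 0.0155% in each direction). It passed with no low-count filter (adjusted p = 0.000296) and in DESeq2 (0.0263). The difference between the tissues was not tested.

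Dtx1 in spleen T8 was 195 ± 17.1 CPM at 3 months and 126 ± 27.9 CPM at 12 months (SD, n = 4 each; log2 fold change -0.62, SE 0.14, adjusted p = 0.0194), where 1.02% of genes passed, 0.925% higher and 0.0942% lower at 12 months. Every 3-month library was above every 12-month library. The call was lost in the fit of all 4 T8 groups and without any 1 of 5 libraries, replicates 1, 2 and 4 at 12 months and 2 and 3 at 3 months (adjusted p from 0.0543 to 0.101). In MF, in Treg and in tumor T8 no gene of the 10 passed, nor did any other gene, except 0.0489% of genes in spleen Treg, all higher at 12 months. Over the 8 age comparisons in which none passed, the interaction included, the genes were tested 50 times. An unadjusted p under 0.05 came up 3 times, and the DESeq2 test called Irf8 in tumor T4.

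**Figure D5:**
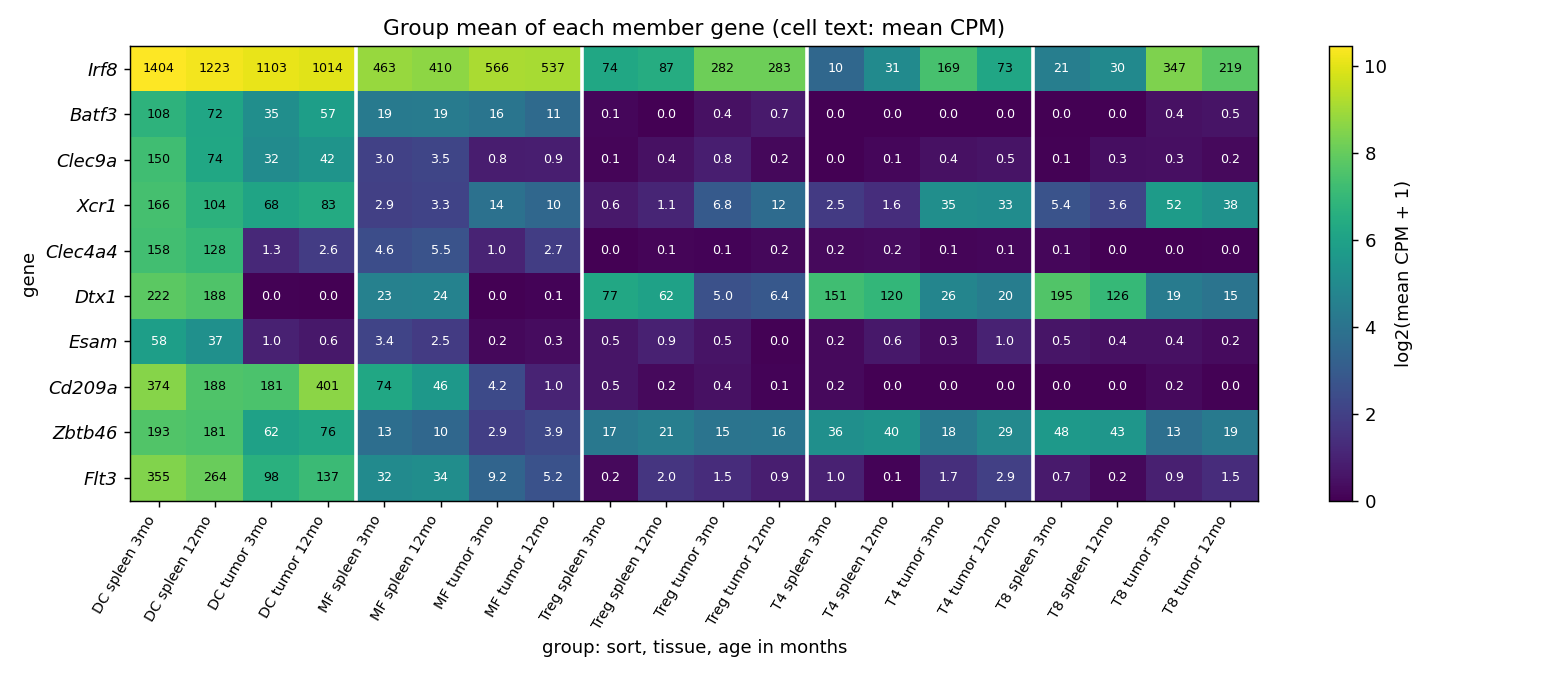
Mean CPM of each of the 10 genes in each of the 20 groups, printed in the cells and coloured as log2(mean CPM + 1). The DC columns of the spleen at 3 months are the highest for every gene except Cd209a, which is highest in tumor DC at 12 months (401 CPM against 374 CPM), and Dtx1 is also high in spleen T cells.

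Ordered over the 10 combinations of sort and tissue, spleen DC had the highest mean of all 10 genes. This place, too, follows in part from the choice of the genes. Tumor DC came next for Irf8, Batf3, Clec9a, Xcr1, Cd209a, Zbtb46 and Flt3. Its libraries overlapped those of spleen DC for Irf8, Batf3, Xcr1 and Cd209a, and overlapped the next in order for Batf3 (spleen MF), Xcr1 (tumor T8), Cd209a (spleen MF), Zbtb46 (spleen T8) and Flt3 (spleen MF). Tumor DC held Irf8 at 742 CPM or more, above every library of any other sort, of which the highest, in tumor MF, held 634 CPM. Clec4a4 was the other way round, with spleen MF (5.01 CPM) second and tumor MF (1.88 CPM) and tumor DC (1.87 CPM) overlapping. Dtx1 followed spleen DC with spleen T8 (161 CPM), T4 (133 CPM) and Treg (69.8 CPM), and its last places were tumor MF (0.0325 CPM) and tumor DC (0.0180 CPM). Esam was under 3 CPM on average in every combination but spleen DC.

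For each gene the 2 others with the most similar pattern were taken by Pearson correlation of log2(mean CPM + 1) over the 20 groups, among 10718 genes. The groups share sorts and tissues, so these values only describe likeness. They were Lat2 and Atf6 for Irf8 (r = 0.949 and 0.948), Rnd3 and Wdfy4 for Batf3 (both 0.987), Zfp366 and Cd209d for Clec9a (0.992 and 0.989) and Spag9 and Trim36 for Xcr1 (0.893 and 0.886). For Clec4a4 they were Slc6a13 and Scn2b (0.974 and 0.963), for Dtx1 Phf12 and Zfp398 (0.975 and 0.958), for Esam Olfr164 and Cyp4f37 (0.988 and 0.975) and for Cd209a Nectin1 and Ncr1 (0.988 and 0.979). Zbtb46 was most like Zmiz2 and Ddr1 (0.933 and 0.914) and Flt3 most like Ffar2 and Rtn1 (0.978 and 0.974). Within the 10, the closest pairs were Flt3 and Cd209a (0.971), Batf3 and Flt3 (0.958), Clec9a and Flt3 (0.954) and Clec4a4 and Esam (0.951). Dtx1 was the least like any other, with Zbtb46 the closest at 0.493.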

How the data were processed

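The 74 libraries were made with Smart-seq2. Per the submitters' processing notes, reads were aligned to mm10 with STAR 2.5.3 and counted with featureCounts, and the authors deposited raw counts per gene symbol. Which annotation, strand setting and rule for reads with several matches they used is not given in the sources, so paralogs and overlapping genes carry that uncertainty. Libraries were grouped by sort, tissue and age in their titles, and 103 replicate pairs were compared, none identical. Genes passing filterByExpr were scaled by TMM and tested with robust quasi-likelihood models in edgeR 4.0.16 (limma 3.58.1, R 4.3.3), two-sided, with Benjamini-Hochberg adjustment over all genes tested and a threshold of 0.05. The SE is the log2 fold change over the root of F. Tumor against spleen is the mean over the ages with all 4 groups of a sort in 1 fit, and age effects were fitted within a tissue. DC against MF used the 8 groups of both sorts. "Rose" and "fell" mean past the threshold. Ratios to Zbtb46 used two-sided exact permutation tests.

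Each named gene is 1 of the 10, or comes from a list by rule: up to 3 past the threshold in each direction, smallest adjusted p first, and the most abundant 2 not past it, or the 2 genes most alike (at least 10 CPM in a group; predicted genes and receptor segments left out). Hes1 and Trem2 were named after their values were seen. The 10 genes and the lists were chosen with earlier results of these data known. Coordinates and exon lengths come from GENCODE vM21 on GRCm38, in which 46891 of 49480 symbols were found.

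The edgeR steps were tested on simulated data. Of 100 simulated log2 changes of 1, 45 were recovered for DC tumor against spleen and 43 for DC against MF in tumor. For age, 15 were recovered in spleen DC and 9 in tumor T4. Of 100 log2 changes of 2, these 4 comparisons recovered 100, 99, 99 and 72. A result not past the threshold thus does not exclude a log2 change of 1 in them. Recovery at the spread of each named gene was not tested. In DC tumor against spleen the SE was 0.15 for Irf8, 0.51 for Clec9a, 0.54 for Xcr1 and 0.65 for Cd209a. Alternatives were size factors of DESeq2 1.42.0, its Wald test, library totals, no low-count filter, no sex term, a replicate block, other groupings of the libraries with conflicting ages, and leaving out male, macrophage-rich or single libraries. Same-numbered libraries were taken as paired only where the correlation of their residuals passed 0.1 in every one of at least 3 pairs, which was met for Treg across the ages in tumor (0.118 to 0.374, 4 pairs). With or without the block, none of the 4 genes tested there passed.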

Additional observations from a re-analysis of the deposited data

Results flagged for a closer look

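A value far from the others was looked for within groups of 4 libraries, gene by gene, in 57 tests, and chance alone sets apart a value in about 1 test in 20. Batf3 stood at 2.72 CPM in tumor MF replicate 2 at 12 months, where the other 3 libraries held 13.2 to 15.4 CPM. Dtx1 stood at 6.70 CPM in tumor T8 replicate 3 at 12 months, where the other 3 held 17.7 to 19.5 CPM.

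The difference between tumor and spleen itself differed between DC and MF for 3 genes in edgeR's test of the difference. It was -2.63 on the log2 scale for Xcr1, which rose in MF and did not pass in DC, -4.58 for Clec4a4, which fell in both sorts and more in DC, and 5.07 for Cd209a, which fell in MF and did not pass in DC. Without the 2 macrophage-rich tumor DC libraries, Cd209a rose in DC.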

How the results depend on the processing

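Counts of the 10 genes past the threshold changed as follows. For DC tumor against spleen (6), 3 passed without the spleen libraries of conflicting age labels, where genes called fell from 6583 to 4375, and 4 to 6 passed with 1 library left out (5797 to 6560 genes called). For DC with age in spleen (1), 2 passed with no low-count filter, 0 without the sex term, without the libraries of conflicting ages, by age tag, without male libraries or in the fit of all 4 groups, and 0 to 4 with 1 library left out. For DC minus MF (3), 5 passed with no filter or without male libraries, and 3 to 5 with 1 library left out. For the DC age by tissue interaction (0), 1 passed with no filter. For T8 with age in spleen (1), 0 passed in the fit of all 4 groups and 0 to 1 with 1 library left out. For T4, 3 to 5 of 5 passed for tumor against spleen and 0 to 1 for age in spleen with 1 library left out. In tumor T4 with age (0), 1 passed with no filter and in DESeq2.

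With the replicate block, 3 of 5 passed in T4 tumor against spleen (Zbtb46 adjusted p = 0.0911 and Flt3 0.175 lost), 0 for T4 age in spleen (Irf8 adjusted p = 0.0719) and 1 for T4 age in tumor (Irf8 adjusted p = 0.000392). In DC tumor against spleen 6 passed with the block as without, with Clec9a gained (adjusted p = 0.0274) and Batf3 lost (adjusted p = 0.0827). The block left the other counts as they were. Same-numbered DC libraries of the tissues correlated at -0.0167 to 0.106 over 5 pairs.

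Signs turned only where a gene had not passed. Irf8 in DC was -0.28 without TMM scaling, -0.20 without male libraries and -0.0737 to 0.16 with 1 library left out. Relative to Zbtb46, Clec9a was 0.0903 and Flt3 0.0802 without the macrophage-rich libraries, and 0.0594 and 0.0429 without those of conflicting ages, with ranges of -0.37 to 0.0258 and -0.14 to 0.0222 when 1 library was left out. With 1 library left out Xcr1 in DC ranged from -0.74 to 0.0129, Cd209a from -0.54 to 0.63, Zbtb46 in Treg from -0.39 to 0.0463 and Clec4a4 in DC against MF of the tumor from -0.0377 to 0.40. Apart from fits with fewer libraries, the cause of these changes was not tested. Depth limits Clec4a4, Dtx1 and Esam in tumor DC, which rest on 80, 1 and 33 counts in all.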
